A study of Rattus norvegicus with 20 samples.

Results

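Nppb and Penk are genes of secreted peptides, and their transcripts were followed in cultured rat epithelial cells from 5 tissues, after and before transplantation into skin. Nppb encodes B-type natriuretic peptide and Penk encodes proenkephalin. They are 2 of the 14506 gene symbols that could be named on an array of 29215 probe sets. Each was read from the probe set that carries its symbol alone and, where several do, from the one with the highest mean over the 20 arrays. The pair was picked with earlier results of these arrays in view, from their levels and their changes after versus before, so the values of both are a description and no test is given for them.

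The cells came from footpad, trachea, esophagus, vagina and oral mucosa of adult Sprague-Dawley rats (postnatal day 200) that carry an EGFP transgene active in all cells (line CZ-004). All groups share this genotype. In the groups after transplantation, rat cells had been placed in newborn mouse skin, grafted onto athymic nude mice, dissected out again and returned to culture. In the groups before transplantation, cells had been cultured from the tissue and not transplanted. Both kinds of culture used a feeder layer of irradiated 3T3-J2 mouse cells and were sorted for EGFP, and each of the 10 groups has 2 arrays. Per the study's methods, the medium held serum, cholera toxin (an agent that raises cyclic AMP), T3, insulin and hydrocortisone at both stages. The 2 arrays of a group are duplicate cultures rather than separate animals or grafts, so the spread between them may be technical. All 6 measured epithelial marker genes, Krt14 and Tp63 among them, lay above the lowest 40% of probe sets in every group. This cut does not by itself tell cell types apart, since 6 to 9 of the 10 measured fibroblast markers passed it as well. Values are log2 intensities from RMA, a method that normalizes arrays against each other. They allow arrays to be compared for 1 gene but not the level of 1 gene with that of another.

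B-type natriuretic peptide is best known as a hormone of the heart, released when its muscle is stretched. It is cut from a precursor, binds the receptor guanylyl cyclase Npr1 and raises cyclic GMP, while Npr3 clears it. Proenkephalin is cut into the enkephalins, short opioid peptides that act mainly on the receptors Oprd1 and Oprm1, and its gene is a classic target of cyclic AMP and AP-1 signalling in neurons and other cells. Enkephalins are broken down by cell surface peptidases such as neprilysin (Mme), which also cleaves natriuretic peptides.

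The stretch before the Nppb gene is shown because binding sites of this kind in it have been studied in cardiac cells, and because the level of this gene differed between stages in every tissue here. It lies at chr5:163699758-163699954 of the rat build GRCr8, on the + strand, and was taken from RefSeq. Capitals mark 1 match to CATTCC, the core letters bound by TEAD factors, which reads GGAATG on this strand, and 2 matches to GATAA, letters bound by GATA factors.
Nppb: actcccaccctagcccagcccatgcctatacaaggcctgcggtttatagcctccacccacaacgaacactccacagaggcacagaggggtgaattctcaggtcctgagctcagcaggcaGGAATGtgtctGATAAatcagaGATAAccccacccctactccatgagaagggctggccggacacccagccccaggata
In the same coordinates, the CATTCC match lies at 163699877-163699882 and the GATAA matches at 163699888-163699892 and 163699899-163699903. Searched on both strands, GATAA occurs in 19.89% and CATTCC in 9.58% of 33469 rat promoter windows of the same length, so neither is rare. TATAAA, found in 9.86% of them, matched once on the opposite strand, and no match overlaps another. TGANTCA, the AP-1 letters, and TGACGTCA, the CREB letters, are not in this window. These matches are letters in the sequence and say nothing of binding.

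Nppb was higher after transplantation in oral mucosa, vagina, esophagus and trachea, and lower after it in footpad. In no tissue did the arrays of the 2 stages overlap. In oral mucosa, Nppb had 7.95 and 7.52 after transplantation, against 6.47 and 5.57 before it. The group means were 7.73 ± 0.31 after and 6.02 ± 0.63 before (SD, n = 2 each), a difference of 1.71 (SE 0.21, pooled over tissues by the fit) or 3.28-fold. The 2 arrays before transplantation stood furthest apart here among all Nppb groups. In vagina it had 10.14 and 10.06 after, against 8.48 and 8.54 before, a difference of 1.58 or 3.00-fold. In esophagus it had 9.23 and 9.30 after, against 7.27 and 7.33 before, a difference of 1.96 or 3.89-fold. Duplicates in both tissues lay within 0.1 of each other, and the stages lay more than 1 apart. In trachea it had 9.35 and 9.37 after, against 8.35 and 8.17 before, a difference of 1.10 or 2.14-fold, the smallest of the 5. In footpad it had 7.26 and 7.09 after, against 9.88 and 10.15 before. That is a difference of -2.84, so that recovered footpad cells held 0.140 times the level before transplantation.

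Few probe sets changed further in the same direction as Nppb. Since the pair was picked in part on these changes, such counts are only a description, here and for Penk below. Of the 29215, larger rises were seen on 9 in esophagus, 36 in vagina, 100 in oral mucosa and 106 in trachea, and larger falls on 34 in footpad.

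Penk followed another pattern, higher after transplantation in vagina, footpad and esophagus and near level in oral mucosa and trachea. In vagina, Penk had 7.72 and 7.85 after transplantation, against 4.65 and 5.10 before it. This difference of 2.91 (SE 0.18), or 7.50-fold, was exceeded by the rises of 2 probe sets of the whole array. In footpad it had 8.91 and 8.30 after, against 5.99 and 6.21 before, a difference of 2.51 or 5.69-fold, and 108 probe sets rose further. In esophagus it had 7.19 and 7.18 after, against 5.28 and 5.17 before, a difference of 1.96 or 3.90-fold, with 8 larger rises. Arrays of the 2 stages were clearly separate in all 3 tissues. In oral mucosa it had 5.87 and 5.96 after, against 6.04 and 5.80 before, a difference of 0.00 (SE 0.18), and the arrays overlapped. In trachea it had 5.10 and 4.92 after, against 4.95 and 5.05 before, a difference of 0.01, and again they overlapped.

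**Figure D1:**
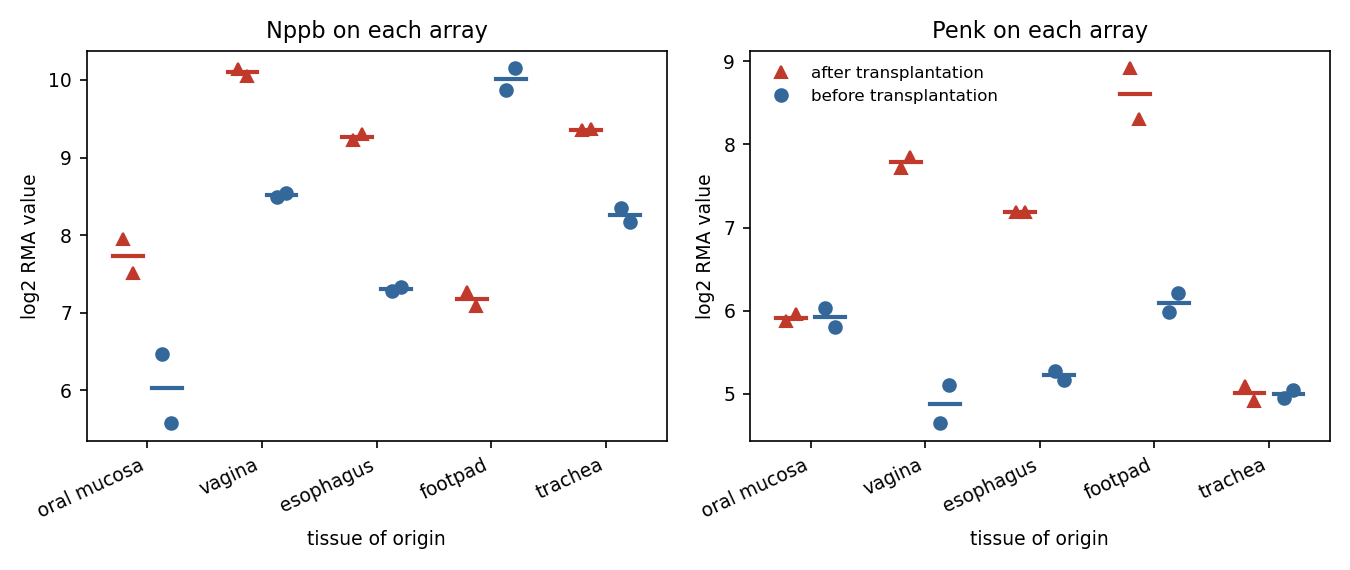
Log2 RMA value of Nppb (left) and Penk (right) on each array, by tissue of origin, with triangles for arrays after transplantation, circles for arrays before it and a bar at each group mean. Nppb lies higher after transplantation in 4 tissues and lower in footpad (7.18 after, 10.01 before), while Penk lies higher in vagina, esophagus and footpad and near level in oral mucosa and trachea.

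The footpad set the pair apart. There Penk was 5.69-fold higher and Nppb 0.140 times as high after transplantation as before it, whereas in vagina and esophagus both were higher. In oral mucosa and trachea Nppb differed and Penk did not by more than its error. Over the 10 group means the 2 genes had a Pearson r of 0.08 and a Spearman rho of 0.05. Both are given as a description, since pairs of groups share a tissue and groups may have been normalized together.

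**Figure D2:**
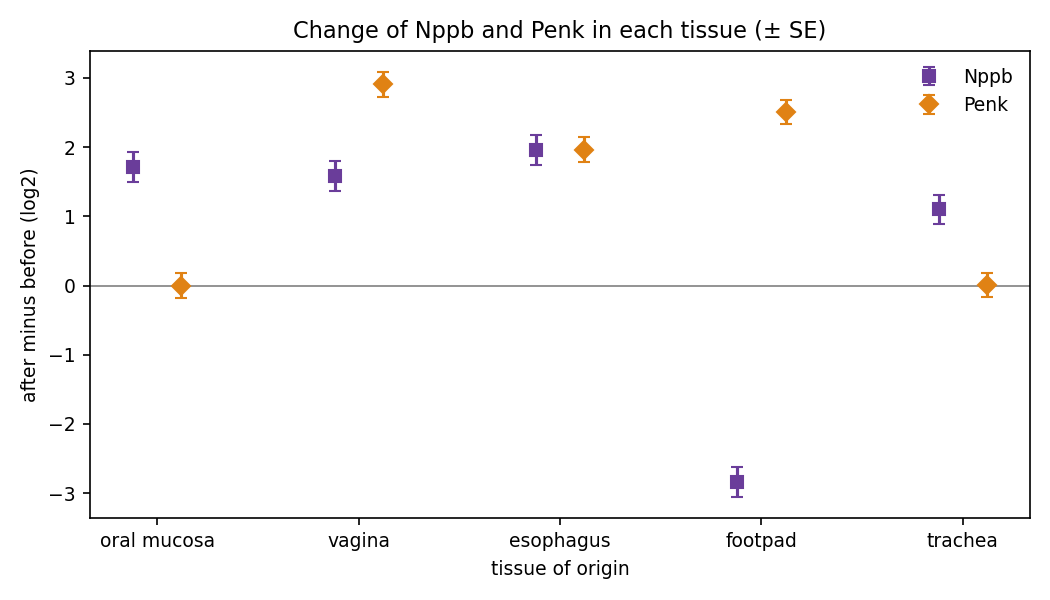
Difference after minus before transplantation (log2) for Nppb (squares) and Penk (diamonds) in each tissue of origin, with bars for the standard error of the fit. The differences run from -2.84 to 1.96 for Nppb and from 0.00 to 2.91 for Penk, and in footpad they lie on opposite sides of 0.

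The order of the groups also changed. Nppb was highest in vagina after transplantation (10.10 ± 0.06) and in footpad before it (10.01 ± 0.19, SD, n = 2 each), and these neighbours overlapped. Below them came trachea after (9.36), esophagus after (9.26), vagina before (8.51), trachea before (8.26), oral mucosa after (7.73), esophagus before (7.30), footpad after (7.18) and oral mucosa before (6.02). No other neighbours in this order overlapped. Footpad thus held the highest Nppb level of the 5 tissues before transplantation and the lowest after it. The tissue means of Nppb spanned 2.92 after transplantation and 3.99 before it.

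Penk was highest in footpad (8.61 ± 0.43), vagina (7.78 ± 0.09) and esophagus (7.19 ± 0.01), all after transplantation. These 3 groups overlapped neither with each other nor with any other group. The remaining 7 groups lay between 6.10 (footpad before) and 4.88 (vagina before). Among them, footpad before overlapped with oral mucosa before, the oral mucosa stages with each other, the trachea stages with each other, and both trachea stages with vagina before. The tissue means of Penk spanned 3.60 after transplantation and 1.22 before it. The file holds no detection call, and the low groups of Penk stand close to 4.77, below which the lowest 40% of probe sets lie.

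Markers of other cell types moved with stage as well. The mean of the 10 measured fibroblast markers was 5.57 after and 7.40 before in vagina, 5.86 after and 7.60 before in footpad, and 5.93 after and 7.36 before in trachea. By the test described next, 7, 8 and 6 of the 10 fell in those 3 tissues. In oral mucosa the mean was 6.41 after and 5.78 before, with 1 marker that rose, and in esophagus it was 5.65 after and 5.64 before, with none called. Thus Nppb was higher after transplantation in vagina and trachea and lower in footpad, while the fibroblast markers were lower in all 3. The part of these cells in the levels of either gene was not tested. In bulk samples, fewer cells of a type and less RNA per cell cannot be told apart. The 9 cardiac and skeletal muscle markers averaged between 4.76 and 4.98 in the 10 groups with none called. The 8 neuroendocrine and Merkel cell markers averaged between 4.34 and 4.60, with 1 that fell in vagina. Of 8 leukocyte markers, 1 fell in oral mucosa and 1 in vagina, and of 5 melanocyte markers 1 rose in footpad. No endothelial marker was called. Of the 6 epithelial markers, 1 rose in footpad, where their mean was 11.27 after and 10.80 before. In every other tissue that mean was lower after than before.

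The genes that make, sense and clear the 2 peptides were then tested, together with related groups, 115 genes in all. After was compared with before in each tissue by limma over all probe sets, and a gene was called at a Benjamini-Hochberg adjusted p under 0.05 and a fold over 2. The call took in 1.50% of all probe sets as higher and 2.15% as lower in oral mucosa, 0.534% as higher and 1.68% as lower in vagina, and 0.517% as higher and 0.558% as lower in esophagus. In trachea it took in 0.496% as higher and 0.883% as lower. Footpad had the largest shares, 4.28% higher and 2.64% lower. With array medians centred, the oral mucosa calls were 349 higher and 828 lower in place of 438 and 628, and no other tissue shifted as far.

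Of the other 15 genes of the natriuretic peptide system, 2 fell in oral mucosa, 3 fell and 1 rose in vagina, and 1 fell in trachea. None was called in esophagus or footpad, the tissues with the steepest Nppb differences in each direction. The median change of the list lay between -0.12 and 0.08 in the 5 tissues, beside -0.03 to 0.06 over all probe sets. The sister peptides Nppa (changes of -0.38 to 0.45) and Nppc (-0.36 to 0.39) were not called in any tissue. The receptor Npr1 fell in oral mucosa, with 5.41 ± 0.01 after and 6.70 ± 0.07 before (change -1.30, SE 0.14, adjusted p = 1.37e-05). The response of Npr1 differed between tissues (F test, adjusted p = 0.00107), and its changes elsewhere ran from -0.54 to -0.07. The receptor Npr2, the clearance receptor Npr3, the musclin gene Ostn and the processing protease Corin passed no call. The cyclic GMP kinases Prkg1 and Prkg2, the phosphodiesterase Pde2a and the peptide-degrading Ide passed none either.

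In vagina, 2 convertases and a phosphodiesterase of the system were called. Furin, which cleaves many precursors including that of B-type natriuretic peptide, fell there (8.22 ± 0.01 after, 9.22 ± 0.01 before, adjusted p = 1.73e-05). Pcsk6, a related convertase known to activate corin, rose there (5.75 ± 0.12 after, 4.58 ± 0.24 before, adjusted p = 1.48e-05). Without replicate 2 of vagina before, its change of 1.00 just missed the fold. Pde5a, a phosphodiesterase that breaks down cyclic GMP, also fell in vagina (change -1.07, adjusted p = 1.43e-05).

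Neprilysin had the steepest fall among the listed genes. Mme had 3.44 ± 0.07 after transplantation and 6.51 ± 0.15 before it in vagina (change -3.07, SE 0.17, adjusted p = 3.91e-08). It also fell in trachea (3.53 after, 5.26 before) and oral mucosa (3.44 after, 5.10 before). In esophagus (3.47 after, 3.53 before) and footpad (3.49 after, 3.68 before) both stages were at the low level. All groups after transplantation lay below 4.77, and a fit without the lowest 40% of probe sets left the gene out. Its response differed between tissues (F test, adjusted p = 1.24e-06).

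The opioid list held 8 further genes, and none was called in any of the 5 tissues. The precursors Pdyn, Pomc and Pnoc and the receptors Oprm1, Oprd1, Oprk1 and Oprl1 had changes between -0.38 and 0.60, also counting Ogfr, the opioid growth factor receptor. Median changes of the list were between -0.15 and 0.18. The response of Ogfr (adjusted p = 0.0074) and Oprm1 (adjusted p = 0.033) differed between tissues. Penk was 7.50-fold higher after than before in vagina, while no other gene of the system differed by a fold over 2 in any tissue.

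Peptidases that degrade enkephalins and like peptides formed a list of 7, with Mme among them. In oral mucosa, vagina and trachea 2 of the 7 fell, in footpad 1 fell, and none rose in any tissue. Median changes of the list were -0.71 in oral mucosa, -0.38 in vagina, -0.20 in esophagus, -0.17 in footpad and -0.55 in trachea. The responses of all 7 differed between tissues, against 37.0% of all probe sets. Anpep, an aminopeptidase that cuts enkephalins, fell in trachea (4.34 ± 0.17 after, 5.85 ± 0.09 before, adjusted p = 4.77e-06) and in vagina (change -1.08). The vagina call was lost without replicate 2 of either stage, where the smaller of the changes was -0.91. Ace, the angiotensin-converting enzyme, fell in oral mucosa (6.16 ± 0.17 after, 7.48 ± 0.31 before), and Thop1, a cytosolic oligopeptidase, fell in footpad (7.88 ± 0.07 after, 9.32 ± 0.07 before). Penk itself was near level in trachea and oral mucosa and 7.50-fold higher in vagina. A link of Penk to these peptidases was not tested.

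Of 15 genes for prohormone processing and storage, 1 rose in oral mucosa, 1 fell in vagina and 1 fell in footpad, with list medians from -0.14 to 0.16. The first was the convertase Pcsk5 (5.20 ± 0.08 after, 3.93 ± 0.42 before), whose change without replicate 1 of oral mucosa before was 0.98, and a fit without the lowest 40% of probe sets left it out. The vagina gene was Furin, given above. Pcsk7, another convertase, fell in footpad (6.67 ± 0.09 after, 7.85 ± 0.03 before, adjusted p = 4.49e-07).

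**Figure D3:**
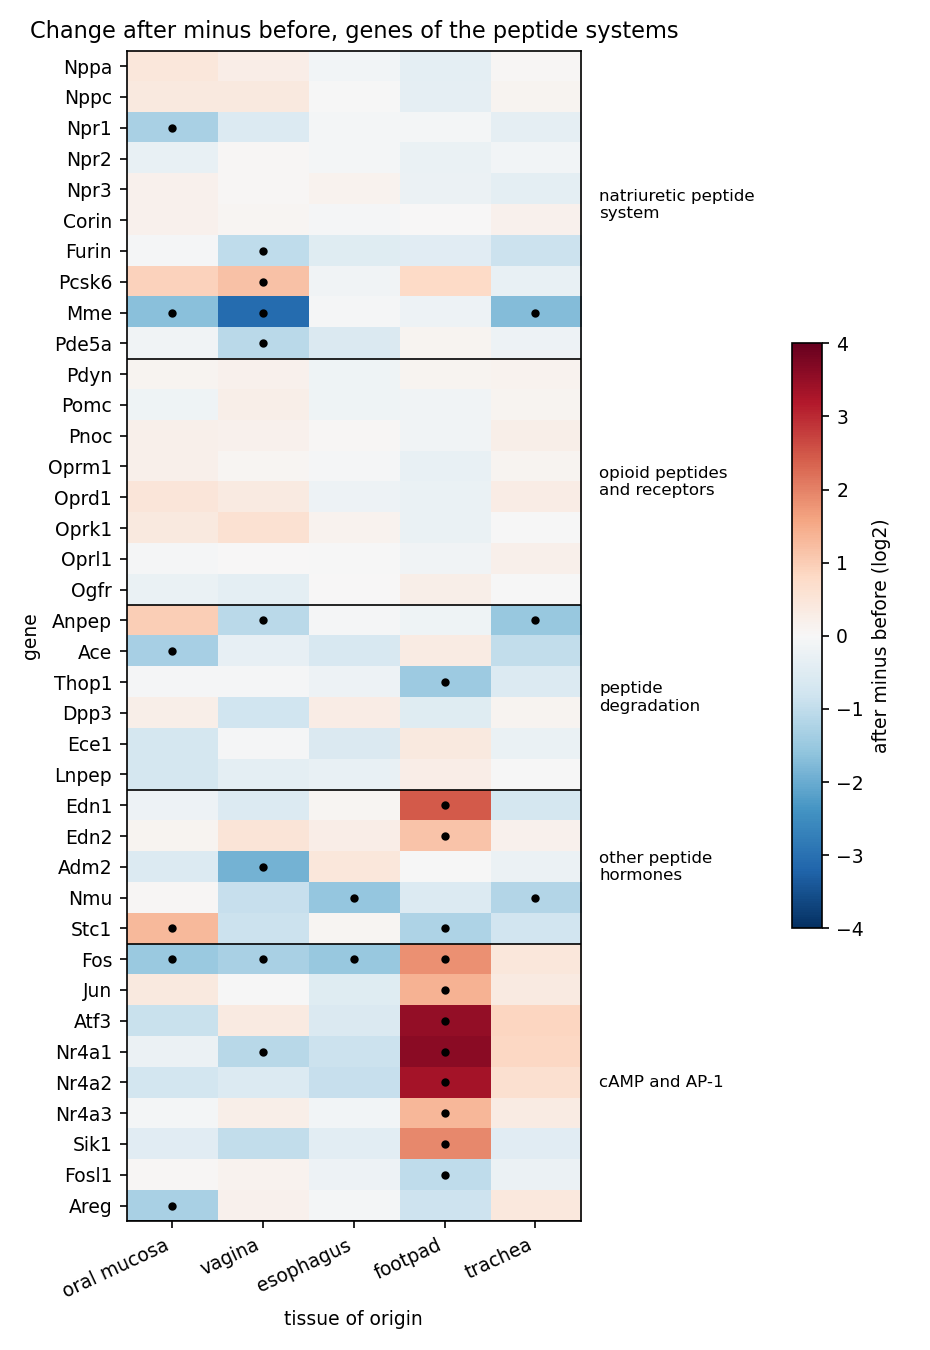
Change after minus before transplantation (log2, colour) of selected genes of the peptide systems (rows, grouped by list) in each tissue of origin (columns). A dot marks where a gene was called. Of the other peptide hormones and of the cyclic AMP and AP-1 genes, only those called in some tissue are shown. Some uncalled natriuretic genes are left out. Mme is called lower in 3 tissues (change -3.07 in vagina), no opioid gene carries a dot, and the cyclic AMP and AP-1 genes carry most of their dots in footpad.

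Most other peptide hormones did not pass the call. Of 41, 1 rose in oral mucosa, 1 fell in vagina, esophagus and trachea each, and 2 rose and 1 fell in footpad. The median changes lay between -0.09 and 0.22. Endothelin 1, a vessel-constricting peptide, rose in footpad, with Edn1 at 7.79 ± 0.16 after and 5.34 ± 0.46 before (change 2.45, SE 0.19, adjusted p = 1.87e-07). Edn2 rose there too (change 1.14), although this was 0.92 without replicate 2 of footpad before. Adm2, a peptide of the calcitonin family, fell in vagina (5.68 ± 0.10 after, 7.58 ± 0.06 before, adjusted p = 9.12e-08). Nmu, the gene of neuromedin U, fell in esophagus (change -1.54) and trachea (change -1.17). Stc1, the secreted glycoprotein stanniocalcin, rose in oral mucosa (change 1.29) and fell in footpad (change -1.24). Without replicate 2 of oral mucosa before, its change there was 0.89.

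Genes of cyclic AMP, CREB and AP-1 signalling were called mostly in footpad, where Penk was also higher. There 7 of 21 rose and 1 fell, with a median change of 0.71 beside -0.03 over all probe sets. The largest were Nr4a1 (9.72 ± 0.08 after, 6.11 ± 0.08 before, adjusted p = 1.93e-10), Atf3 (11.37 ± 0.08 after, 7.87 ± 0.35 before) and Nr4a2 (9.24 ± 0.17 after, 5.92 ± 0.24 before), all transcription factors induced early on stimulation. Sik1, a kinase induced by cyclic AMP, rose by 1.92. Fos (change 1.83), Jun (1.39) and Nr4a3 (1.32) also rose there. Fosl1 fell (change -1.02) but its change was -0.97 without replicate 2 of footpad before and it missed the fold with array medians centred.

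In vagina, where Penk was 7.50-fold higher, Fos (change -1.31) and Nr4a1 (change -1.11) fell and no gene of the list rose. In esophagus Fos fell (change -1.51), and no other gene of the list was called. In oral mucosa Fos (change -1.49) and Areg (change -1.28) fell, and in trachea none was called. The list medians in these 4 tissues lay between -0.24 and -0.02. The responses of 17 of the 21 differed between tissues, against 37.0% of all probe sets. Of 11 genes expressed with Nppb in the stressed heart, Ccn2, the gene of connective tissue growth factor, fell in oral mucosa (change -1.20, SE 0.10, adjusted p = 8.17e-07). No other was called, and list medians ran from -0.21 to 0.33.

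Over the 115 listed genes, 2 rose and 6 fell in oral mucosa, 1 rose and 7 fell in vagina, 2 fell in esophagus, 9 rose and 4 fell in footpad, and 3 fell in trachea. The response of 53 differed between tissues, against 37.0% of all probe sets. Without footpad, a fit chosen after seeing the data, the response of 41 did, against 23.6% of all probe sets. Levels differed between tissues for 27 after transplantation, where 11.9% of all probe sets did, and for 20 before it, where 9.05% did. With the spread between tissues as the error, none of the 115 had a mean response over the 5 tissues (limma on group means). The share over all probe sets was 0%, and 3273 probe sets, 11 of the listed genes among them, had an unadjusted p under 0.05.

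Nppb and Penk both lie on rat chromosome 5. For comparison, 6 measured genes around each were read, the nearest on either side in equal number, chosen by position after values had been seen. On one side of Nppb, Nppa is the adjacent gene, and Clcn6 and Agtrap follow. On the other side lie Plod1, Mfn2 and Miip. Of these 6, none was called except Miip, which rose in oral mucosa (change 1.01). That call was lost with array medians centred (0.87) and without replicate 2 of either stage (0.87 at the lowest). Penk had neighbours called higher in vagina and footpad, where 0.534% and 4.28% of all probe sets were called higher. A link of these calls to position was not tested. Sdr16c5, a retinol dehydrogenase gene, rose in vagina (9.34 ± 0.15 after, 7.60 ± 0.11 before, adjusted p = 6.49e-07) and footpad (10.45 ± 0.06 after, 9.23 ± 0.05 before). The adjacent Sdr16c6 rose in footpad (5.07 ± 0.08 after, 2.89 ± 0.10 before, adjusted p = 2.1e-09), and the level before lay among the lowest 40% of probe sets. Plag1, a zinc finger factor, also rose in footpad (7.21 after, 6.01 before), though its change was 0.96 without replicate 1 of footpad before. On the other side of Penk, Fam110b, Ubxn2b and Cyp7a1 were not called. In esophagus, where Penk was 3.90-fold higher, no neighbour was called.

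**Figure D4:**
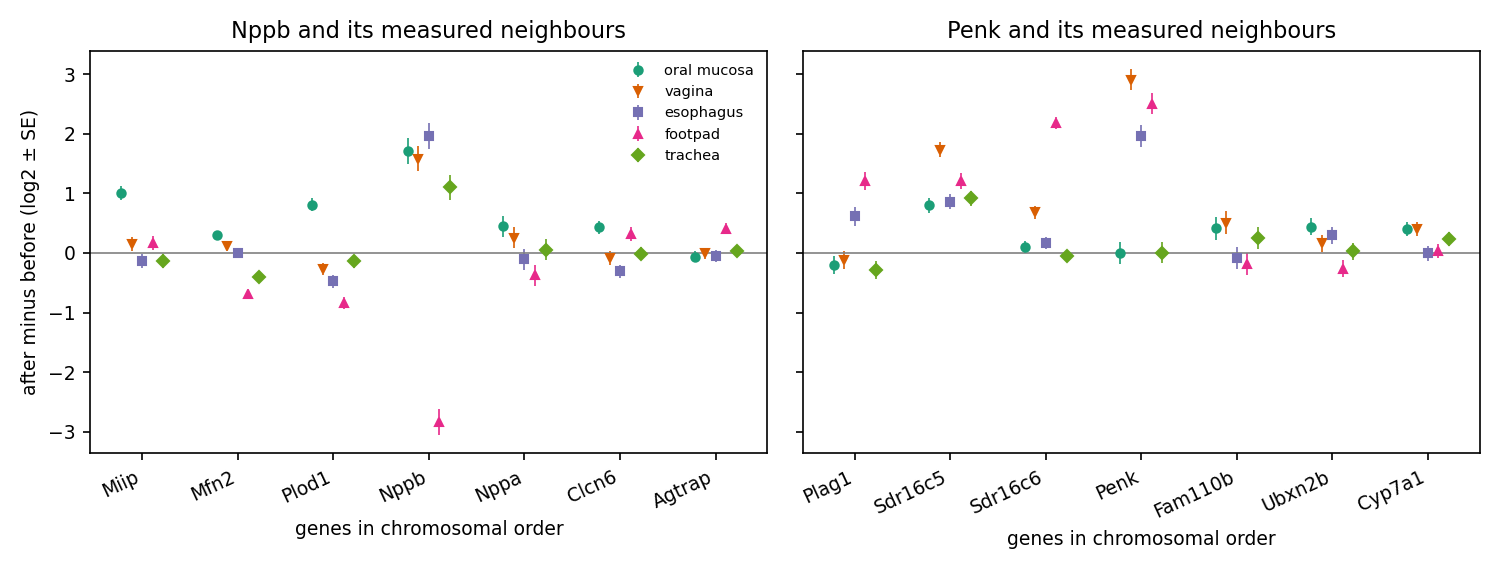
Change after minus before transplantation (log2, bars for the standard error) of Nppb (left) and Penk (right) and 6 measured genes around each, equally many per side, in chromosomal order, 1 marker per tissue of origin. Nppa, beside Nppb, runs from -0.38 in footpad to 0.45 in oral mucosa and is not called in any tissue. Sdr16c5 and Sdr16c6 lie above 0 in footpad (changes 1.21 and 2.18) beside Penk at 2.51.

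Genes whose levels ran most like each of the pair were sought among 3389 symbols whose group means span at least 1. The highest Pearson r with Nppb over the 10 group means belonged to Hnrnph1 (0.91), Emc8 (0.91), Ercc1 (0.90), Prpsap2 (0.89) and Znhit6 (0.89), each changing less than Nppb in every tissue. With Penk it belonged to Arg2 (0.95), Selenoi (0.91), Oip5 (0.90), Dnase1l3 (0.90) and Gpr19 (0.90), all highest in footpad after transplantation. Without the footpad groups none of the 5 named for Nppb was kept and 2 of the 5 for Penk were.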

How the data were processed

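Total RNA (100 ng) of EGFP-sorted cells was hybridized to Affymetrix Rat Gene ST arrays. In Affymetrix Expression Console the authors ran RMA to make the deposited log2 values. RMA corrects background, quantile-normalizes and summarizes probes. Not given in the sources used here were versions, annotation build and which arrays were normalized together. The 20 arrays had medians between 5.31 and 5.55, and their number limits the precision. Groups came from the labelled tissue and stage. Roman numerals in the titles are unexplained and differ between stages in every tissue but vagina, so a difference of passage cannot be told apart from stage. Whisker and thymus were not analysed here.

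Platform annotation gave 15310 probe sets 1 symbol, 323 several (not named) and 13582 none here. All 10 groups were fitted together with limma 3.58.1 (R 4.3.3), with Benjamini-Hochberg adjustment over 29215 probe sets. On simulated data, 95% of log2 changes of 1.5 were recovered in the vagina comparison, and smaller changes were not simulated. Named were Nppb and Penk, the natriuretic and opioid lists, up to 4 genes with the largest calls per list and tissue, and the 5 most alike. Jun, Nr4a3, Sik1, Fosl1 and the neighbours were added after values were seen. Members and lists were chosen with earlier results of these data known. Same-numbered duplicates correlated between -0.15 and 0.03 in their deviations, so numbers do not pair samples. Alternatives covered scaling, low values, arrays fitted, variance prior, replicate block and single arrays left out.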

Additional observations from a re-analysis of the deposited data

Results flagged for a closer look

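Nppb in footpad moved against the other tissues. Its change in footpad minus the mean of its changes in the other 4 was -4.42 on the log2 scale, and both footpad arrays after transplantation lay below both before it, whereas the reverse held in each other tissue. This difference was not tested, since the gene was chosen on these arrays.

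Among the listed genes, 3 were called in opposite directions in different tissues, and their responses differed between tissues by the limma F test. The changes of Nr4a1 spanned 4.72 between footpad and vagina (adjusted p = 1.72e-09), those of Fos 3.34 between footpad and esophagus (adjusted p = 8.33e-08), and those of Stc1 2.53 between oral mucosa and footpad (adjusted p = 2.26e-05). No group had enough arrays to look for a single array far from the others.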

How the results depend on the processing

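Of 246 results recomputed under another setting, 238 stayed the same by a fixed rule. For Nppb and Penk the rule asked for a move within the pooled SD of the duplicates. For counts of list genes it allowed a limited ratio to the main count, so that 10 against 8 in oral mucosa passed. Settings for low values, arrays fitted, variance prior and replicate block left the changes of Nppb and Penk as they were. The mean of all probe sets of a symbol did too, so under these settings both genes could not move. Leaving out 1 of the 2 arrays of a group cannot move a change by more than this pooled SD. Those runs were therefore bound to pass for both genes, and only centring of the array medians could fail. Of the results that moved, 6 are choices of the genes most like Nppb and Penk, of which 1 to 3 of 5 were kept by Spearman rho or over 20 arrays. With each array centred on its median, the change of Penk in oral mucosa was -0.14 and that of Nppb in vagina was 1.52, moves larger than the pooled SD of the duplicates that equal the difference in array medians between the stages. Leaving out 1 array at a time, the changes of Nppb ranged from 1.26 to 2.16 in oral mucosa, 1.54 to 1.62 in vagina, 1.92 to 2.0 in esophagus, -2.97 to -2.70 in footpad and 1.01 to 1.19 in trachea. Those of Penk ranged from -0.12 to 0.11 in oral mucosa, 2.68 to 3.13 in vagina, 1.91 to 2.02 in esophagus, 2.20 to 2.81 in footpad and -0.08 to 0.10 in trachea. Called list genes numbered 7 to 10 in oral mucosa, 6 to 10 in vagina, 2 to 3 in esophagus, 11 to 14 in footpad and 3 to 4 in trachea, and 6 of 34 calls were lost in some run. With the replicate block the list calls were the same 8, 8, 2, 13 and 3 genes by tissue. In oral mucosa the duplicates correlated at -0.15 across stages, and a crossed pairing, chosen after seeing the data, gave 1068 calls against 1065 with the block. With 2 arrays per group and no detection call, small changes of low probe sets cannot be resolved.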
